A study of Mus musculus with 8 samples.

Results

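Bone marrow cells of C57BL6/J mice were grown in M-CSF, without RANKL, and their transcripts were measured on day 3 and on day 6 of treatment, with 1 array per day. These 2 of the 8 arrays of the series give the change described here, which is the log2 signal on day 6 minus the log2 signal on day 3. The other 6 arrays, used for comparison, came from 3 cultures treated with M-CSF and RANKL and sampled on the same days, 1 with no retrovirus named (M-CSF+RANKL), 1 given a retrovirus for wild-type PSS1 (PSS1-WT) and 1 given a retrovirus for mutant PSS1 (PSS1-LMS). The dose of M-CSF was 50 ng/ml and that of RANKL, where given, 100 ng/ml, starting the day after seeding, and virus followed a day later. The protocol text is the same for every sample and names both factors and the virus, so the absence of RANKL from the M-CSF culture rests on the sample titles. Whether that culture received an empty vector is not stated in them. The labels name bulk bone marrow cells, give no sex, age or number of mice, and do not say whether the days were sampled from separate dishes.

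M-CSF is the growth factor through which marrow progenitors and monocytes become adherent macrophages, signalling through the receptor encoded by Csf1r. As these cells mature they are known to leave the cell cycle, enlarge the lysosomal compartment in which engulfed material is digested, and take up receptors for debris, opsonised particles and lipoproteins. Cholesterol released from digested membranes is exported through transporters that the liver X receptors (LXR) induce when sterols accumulate, and iron from digested red cells leaves through ferroportin. With RANKL added, the same precursors become osteoclasts, which resorb bone.

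A transcript was counted as above background when its signal on at least 1 of both M-CSF arrays lay 1 log2 unit or more over the brightest of that array's 23 background probe sets. That limit kept 6243 of 19505 genes (32.0%), 4896 of them on both arrays. The brightest background probe set read 6.29 on day 3 and 7.13 on day 6, against 5.54 to 6.26 on the arrays with RANKL, while the median difference over the background probe sets was -0.03 between the days. Signals under an array's brightest background probe set were raised to it before a difference was taken. A fold that rests on a signal less than 1 log2 unit over that background is a bound and is given as "at least". A gene that passed the limit through day 6 alone had to be higher on day 6, so the counts and medians over gene lists are descriptions and support no statement about a list. The scale ends at 19.93, and 13 genes on day 3 and 14 on day 6 lay within 0.5 of that end. With 1 array per culture and day, no value has an error of its own.

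The identity of the culture was checked on marker genes. Csf1r, encoding the M-CSF receptor, had a signal of 16.98 on day 3 and 17.56 on day 6, and Spi1, the myeloid master regulator, 18.99 and 18.93. Of 15 osteoclast markers, 10 were within background on both M-CSF arrays, among them Acp5 (5.14 and 6.38), Ctsk (4.46 and 5.55), Mmp9 (3.93 and 4.84) and Dcstamp (4.18 and 5.40), whose means in the RANKL cultures were 16.31 or higher on each day. Markers of lymphoid, erythroid, stromal and endothelial cells were near background. Above it were 1 of 11 measured B cell genes (Blnk), 2 of 13 T and NK cell genes (Cd4 and Il7r), 1 of 9 erythroid genes (Tfrc), 1 of 17 stromal genes (Acta2) and 0 of 9 endothelial and adipocyte genes. In such bulk samples, fewer cells of a type and less RNA per cell cannot be told apart.

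Between day 3 and day 6 in M-CSF, 349 genes were higher by 4-fold or more (5.59% of the 6243) and 205 lower by as much (3.28%). At 2-fold the counts were 1124 (18.0%) and 999 (16.0%). The median difference over all genes above background was -0.04, and the central 90% of genes lay between -1.74 and 2.09. At 16-fold, 39 genes were higher and 12 lower. In the RANKL cultures over the same interval far fewer genes passed 2-fold: 107 higher (1.53%) and 138 lower (1.97%) in M-CSF+RANKL, 149 (2.13%) and 276 (3.94%) in PSS1-WT, and 97 (1.44%) and 163 (2.42%) in PSS1-LMS. At 4-fold they numbered 9 (0.129%) and 13 (0.186%), 8 (0.114%) and 15 (0.214%), and 11 (0.163%) and 9 (0.134%) in the same order. The standard deviation of the differences over genes was 1.19 in M-CSF and 0.49 to 0.57 in the RANKL cultures. These counts describe 1 pair of arrays per culture and carry no test.

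**Figure D1:**
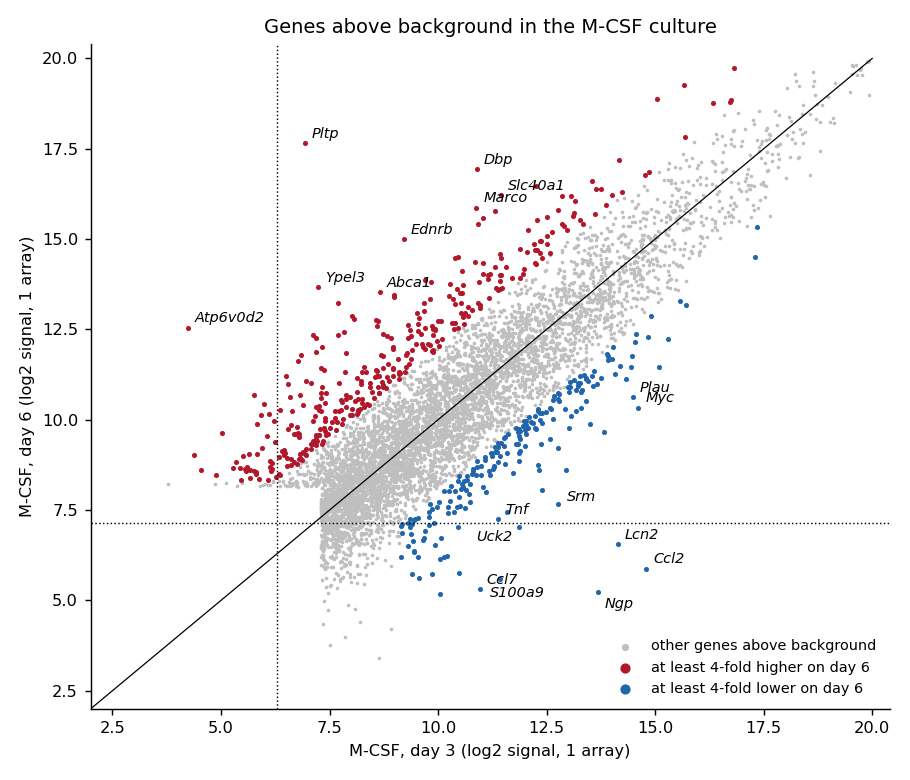
Log2 signal of each gene above background in the M-CSF culture on day 3 (horizontal) and day 6 (vertical), 1 array per day, with the diagonal of equal signal and dotted lines at the brightest background of either day (6.29 and 7.13). The 349 genes higher by 4-fold or more on day 6 are red and the 205 lower by as much are blue, and Pltp and Atp6v0d2 lie far above the diagonal while Ccl2, Lcn2 and Ngp end within background.

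The single test the arrays allow compares the day change in M-CSF with the mean day change of the 3 RANKL cultures. It takes its spread from those 3 cultures, which differ in the virus they received, and assumes that the lone M-CSF change varies as theirs do. Of 7555 genes tested with limma, the day change was higher in M-CSF for 1286 (17.0%) and lower for 1088 (14.4%) at an adjusted p under 0.05. It says whether the 3 days in M-CSF differed from the 3 days in RANKL, not whether a gene changed in M-CSF alone, and a fall toward background in both kinds of culture does not pass it. In the text below, "higher" and "lower" without a p describe the pair of M-CSF arrays. List counts at 2-fold stand against 18.0% higher and 16.0% lower over all genes, and test counts against the shares just given.

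The largest gain was that of Pltp, the phospholipid transfer protein, which moves phospholipids between lipoproteins. Its signal in M-CSF was 6.93 on day 3 and 17.65 on day 6. On the same days it was 12.48 and 14.19 in M-CSF+RANKL, 13.08 and 12.64 in PSS1-WT, and 13.72 and 14.06 in PSS1-LMS. The M-CSF array was thus the lowest of the day 3 arrays and the highest of the day 6 arrays, with no overlap on either day. The day 3 signal in M-CSF lay less than 1 log2 unit over background, so the difference of 10.72 is a gain of at least 1682-fold. It exceeded the mean RANKL change by 10.18 ± 0.57 (SE, adjusted p = 8.91e-10).

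Atp6v0d2, the d2 subunit of the membrane sector of the vacuolar proton pump, known as an osteoclast and macrophage fusion gene, went from 4.23, within background, to 12.55. In the RANKL cultures its signal was 18.70 to 19.17 on all 6 arrays. The gain in M-CSF was at least 76.3-fold, and even on day 6 the M-CSF array stayed below every array with RANKL. The measured day change exceeded that in RANKL by 8.42 ± 0.39 (adjusted p = 1.14e-10). That value is read through a day 3 signal within background, and with that signal raised to background the M-CSF change was 6.25, so the size of the excess is not a measured one.

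Abca1, the transporter that loads cholesterol and phospholipid onto apolipoprotein A-I, had a signal of 8.65 on day 3 and 13.53 on day 6 in M-CSF. The RANKL arrays read 8.95 and 8.31 (M-CSF+RANKL), 7.92 and 8.37 (PSS1-WT), and 8.34 and 8.36 (PSS1-LMS). On day 3 the M-CSF array lay among the RANKL arrays, and on day 6 it lay above all of them. The gain was 29.4-fold, 4.93 ± 0.44 above the RANKL change (adjusted p = 3.25e-07).

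Dbp, a clock-controlled transcription factor, read 10.89 and 16.93 in M-CSF and 10.69 to 12.49 on the RANKL arrays, a 65.8-fold gain in M-CSF that left its day 6 array above all others. Ypel3, of the yippee-like family, read 7.22 and 13.66 in M-CSF against 7.09 to 8.08 with RANKL, a gain of at least 86.9-fold. Slc40a1, encoding the iron exporter ferroportin, read 11.45 and 16.22 in M-CSF and 6.29 to 7.54 with RANKL. It was the highest of the 4 cultures on both days and gained 27.2-fold in between.

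The other genes among the 15 largest gains were Ednrb, an endothelin receptor (54.9-fold), Hpgd, which inactivates prostaglandins (46.6-fold), Fcgrt, the neonatal Fc receptor (at least 37.9-fold), and Plxdc2, a transmembrane protein (at least 33.6-fold). They also included the scavenger receptor Marco (31.6-fold), the C-type lectin Clec2d (at least 30.9-fold), the sialyltransferase St6gal1 (at least 28.6-fold), Klhl24, an adaptor of a ubiquitin ligase (28.6-fold), and Nxpe5 (26.5-fold). On day 6, 13 of the 15 read higher in M-CSF than on every RANKL array, and 2, Atp6v0d2 and Clec2d, read lower than on every one. The mean measured day change with RANKL stayed within 1 log2 unit for 14 of the 15, the exception being Marco (1.18 ± 0.28, SD, n = 3). Its day 3 signals with RANKL (4.74 to 5.37) lay within background. With signals raised to background its changes were -0.04 in M-CSF+RANKL, 0.11 in PSS1-WT and 0.84 in PSS1-LMS. The RANKL signals of Hpgd (3.28 to 4.51) and Nxpe5 (4.08 to 5.16) lay within background on both days, so their small changes show no steady level. Those of Plxdc2 lay within background on day 3. All 15 passed the test against RANKL. They were picked for the size of their M-CSF change, which enters that test, so this count is a description.

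**Figure D2:**
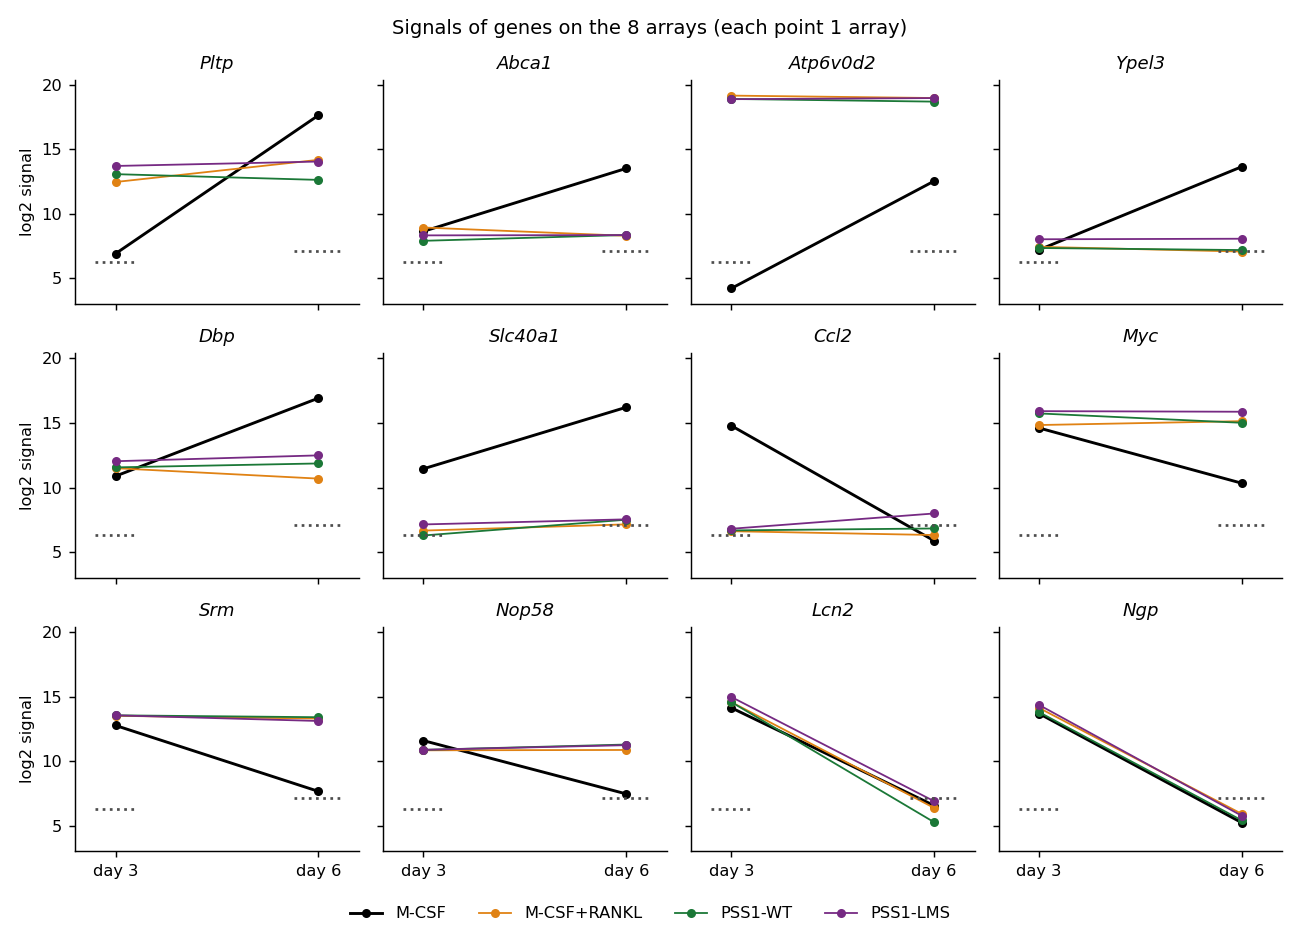
Log2 signals of 12 genes on days 3 and 6, each point 1 array, joined within a culture; black is M-CSF, orange M-CSF+RANKL, green PSS1-WT and purple PSS1-LMS, and dotted marks show the brightest background probe set of the M-CSF arrays. The black lines of Pltp, Abca1, Atp6v0d2, Ypel3, Dbp and Slc40a1 climb, those of Myc, Srm, Nop58 and Ccl2 drop alone, and Lcn2 and Ngp drop in all 4 cultures.

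Genes of cholesterol efflux were higher on day 6. Of 11 LXR target and efflux genes above background, 9 were at least 2-fold higher, 7 of them by 4-fold or more, and 0 were at least 2-fold lower, with a median difference of 2.35 against -0.04 over all genes. The list's median in the RANKL cultures lay between -0.43 and 0.02. The -0.43, in PSS1-WT, equals the difference between that culture's brightest background probe sets (5.97 on day 3 and 5.54 on day 6). The day change was higher in M-CSF for 11 of the 11. Of these, 3, Pltp, Abca9 and Abcg1, passed the background limit through day 6 alone and had to be higher, and 8 passed it on both days. Beside Pltp and Abca1, Apoe, the apolipoprotein that macrophages secrete, went from 15.68 to 19.26 (12.0-fold), close to the end of the scale. Abca9, an ABC transporter, went from within background (5.76) to 10.69, at least 21.0-fold, and Abcg1, which exports cholesterol to high-density lipoprotein, from 6.28 to 8.43, at least 4.39-fold.

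Mylip, the ubiquitin ligase that degrades the LDL receptor, was 5.80-fold higher, and the phosphodiesterase Smpdl3a 5.10-fold. The lysosomal cholesterol carrier Npc2 was 3.52-fold higher, lipoprotein lipase (Lpl) 2.61-fold, Npc1, which passes cholesterol out of the lysosome, 1.98-fold, and the acyltransferase Lpcat3 1.93-fold. Nr1h3, which encodes LXR alpha, was within background on both days (4.12 and 4.68), so its own level gave no difference. Of 16 genes of cholesterol synthesis above background, 2 were at least 2-fold higher and 4 lower, with a median of -0.33, against shares of 18.0% and 16.0% over all genes. The day change was higher in M-CSF for 1 and lower for 5, against 17.0% and 14.4% of all genes tested. The largest decrease was that of Hsd17b7, a sterol reductase, from 11.87 to 8.86 (8.06-fold lower), and Sqle, squalene epoxidase, was 2.63-fold lower. Dhcr7, the last reductase of the pathway, was 2.19-fold higher.

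Of 26 hydrolases and membrane proteins of the lysosome, all measured above background on both arrays, 14 were at least 2-fold higher, 7 of them by 4-fold or more, and 0 were at least 2-fold lower, with a median of 1.06. The RANKL medians of the list were -0.14 to 0.18. In the test the day change was higher in M-CSF for 15 and lower for 1, Ctsl, a cathepsin that was 1.28-fold lower in M-CSF. The phospholipase Pla2g15 went from 10.47 to 14.50 (16.4-fold). Enzymes that take apart heparan sulfate followed, with Sgsh from 8.28 to 11.46 (9.05-fold) and Naglu from 9.37 to 12.33 (7.75-fold). Ctns, the cystine exporter, was 8.64-fold higher, the mannosidase Man2b1 4.19-fold and the glycogen-degrading glucosidase Gaa 4.14-fold, and cathepsin A (Ctsa) went from 14.76 to 16.76. The abundant cathepsin B (Ctsb, 19.52 and 19.82) had little room on the scale, and Lamp1, the main lysosomal membrane glycoprotein, differed by 0.31.

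The proton pump that acidifies the lysosome is built of many subunits. Of 17 subunits and accessory proteins, 9 were at least 2-fold higher and 2 lower (median 1.13, RANKL medians -0.14 to 0.02), and the day change was higher in M-CSF for 7 and lower for 0. Atp6v1a, the catalytic subunit, went from 12.27 to 14.32 (4.14-fold), Atp6ap1, an accessory protein, from 11.90 to 13.62 (3.31-fold), and Tcirg1, the a3 subunit, from 13.18 to 14.79 (3.06-fold). Atp6v0d1, the widely expressed d1 isoform of the gained d2 subunit, was 2.09-fold lower (14.34 to 13.28), and Atp6v0a2 at least 2.05-fold lower. The summed signal of the pump list was 16.82 on day 3 and 17.88 on day 6 in M-CSF, and 20.09 to 20.55 on the RANKL arrays, so the sum in M-CSF stayed below RANKL on both days. This did not hold for every member: Atp6v0a1 read 15.21 and 16.64 in M-CSF and 10.88 to 12.03 on the RANKL arrays.

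TFEB-family factors, the MiT factors, are known to bind the E-box CACGTG in promoters of lysosomal genes, a set called the CLEAR network. Of 14 MiT factors and further network or autophagy genes above background, 9 were at least 2-fold higher and 0 lower, with a median of 1.15 (RANKL medians -0.05 to 0.00), and the day change was higher in M-CSF for 8. Flcn, which restrains TFEB and Tfe3, was 9.88-fold higher (7.43 to 10.73), and the autophagosome proteins Gabarapl1 and Map1lc3b 8.73-fold and 6.13-fold. The factors Tfe3 and Mitf were 2.44-fold and 2.13-fold higher, and Tfec 1.37-fold. Tfeb itself did not pass the background limit (6.54 and 6.58).

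The letters CACGTG, which read the same on both strands, were looked for in the 250 bases before the start in RefSeq promoters (GRCm38.p6). They occurred for 1854 of 27025 genes (6.86%) and for 10.8% of the 5190 genes above background that have a promoter there. Of the lysosomal list 8 of 24 had the letters (33.3%), and of the pump list 2 of 11 (18.2%). The cholesterol synthesis list, whose median difference was -0.33, had them for 4 of 12 (33.3%), so that share was not particular to the lysosomal list. Among members of the lysosomal and pump lists at least 2-fold higher on day 6, the share was 8 of 21 (38.1%), and among the other members 2 of 14 (14.3%). A match is a description of these letters, not a binding site. The 8 promoters with the letters among the higher members follow, printed around a match, with the E-box in capitals.
Sgsh (chr11:119355512-119355561, minus strand): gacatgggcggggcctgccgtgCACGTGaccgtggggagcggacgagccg
Naglu (chr11:101069999-101070048, plus strand): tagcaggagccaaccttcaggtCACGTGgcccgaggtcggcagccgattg
Gaa (chr11:119267801-119267850, plus strand): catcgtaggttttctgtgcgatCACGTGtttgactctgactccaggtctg
Atp6v1a (chr16:44139363-44139412, minus strand): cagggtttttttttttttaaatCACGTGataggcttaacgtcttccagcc
Ctsa (chr2:164833739-164833772, plus strand): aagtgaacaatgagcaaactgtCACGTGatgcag
Gla (chrX:134601172-134601221, minus strand): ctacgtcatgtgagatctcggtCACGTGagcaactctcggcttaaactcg
Atp6v0b (chr4:117887330-117887369, minus strand): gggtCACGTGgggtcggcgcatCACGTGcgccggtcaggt
Mcoln1 (chr8:3500452-3500501, plus strand): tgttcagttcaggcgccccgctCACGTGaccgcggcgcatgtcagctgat

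The same window of Abca1 is shown because this gene is a textbook LXR target and had the largest gain of its list with both signals above background. LXR binds a pair of AGGTCA half-sites spaced by 4 bases. Exact copies occurred in the promoters of 4 genes of the whole table, and copies with up to 3 mismatches in 20.9% of genes, in 1 of 7 promoters of the efflux list. That 1 was Abca1, whose closest copy, at position -67 from the start and read on the other strand, had 3 mismatches. Copies with up to 3 mismatches also occurred for 8 of 21 lysosomal and pump members at least 2-fold higher on day 6 (38.1%). Among the other members of those lists they occurred for 0 of 14 (0.0%). The split seen for the E-box was thus not particular to it. In the Abca1 sequence the first capitals mark an E-box and the second the LXR-like element.
Abca1 (chr4:53159937-53160052, minus strand): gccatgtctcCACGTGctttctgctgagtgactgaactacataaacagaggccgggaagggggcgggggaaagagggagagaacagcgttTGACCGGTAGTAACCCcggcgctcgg

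**Figure D3:**
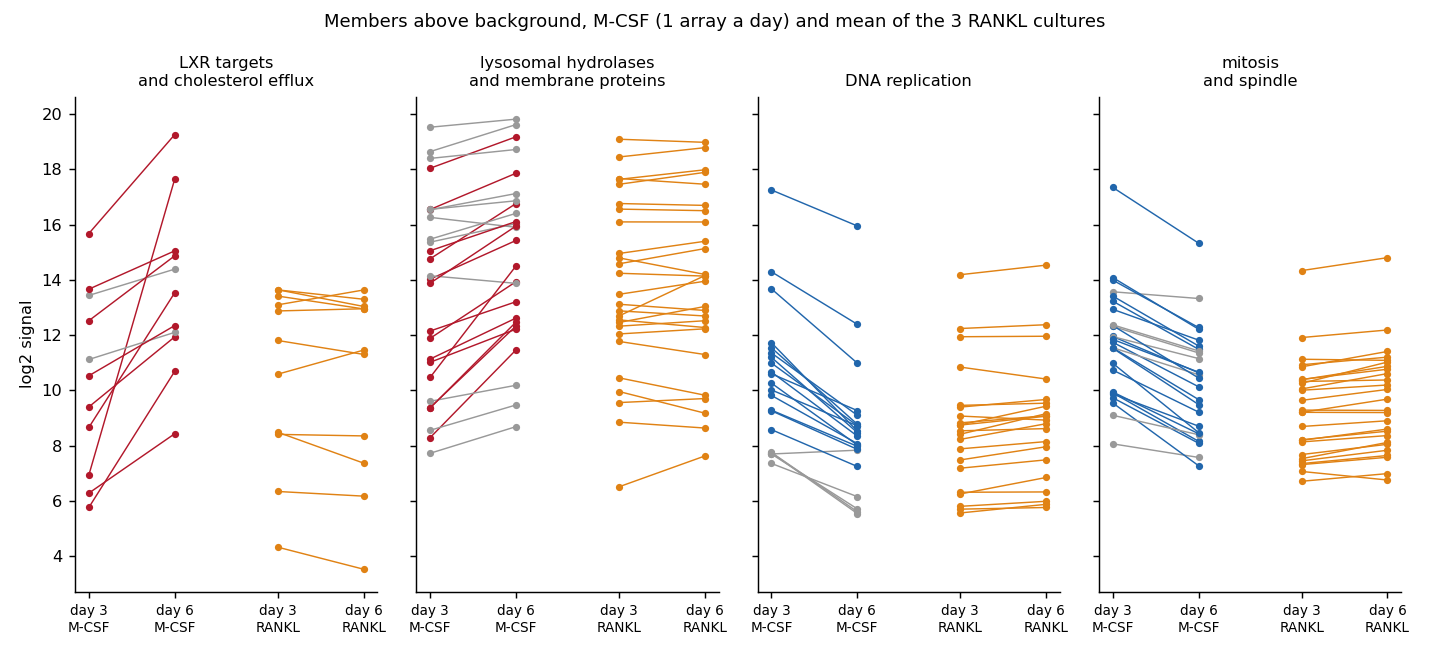
Log2 signals of members above background in 4 lists, each line 1 gene, on days 3 and 6 in M-CSF (left pair, 1 array a day; red at least 2-fold higher, blue at least 2-fold lower, grey between) and as the mean of the 3 RANKL cultures (right pair, orange). In M-CSF, 9 of 11 LXR and 14 of 26 lysosomal members are red, 16 of 21 DNA replication and 19 of 26 mitosis members are blue, and the median changes of these lists in the RANKL cultures lie between -0.43 and 0.46.

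Macrophage identity genes were largely above background by day 3. Of 20 above background, 10 were at least 2-fold higher and 1 lower, with a median of 1.08 (RANKL medians -0.27 to 0.30), and the day change was higher in M-CSF for 10 and lower for 1. Mertk, a receptor that binds dying cells through bridging proteins, went from 9.32 to 12.25 (7.66-fold), Adgre1, a surface marker used to sort macrophages, from 13.10 to 15.65 (5.85-fold), and the Fc receptor-like gene Fcrls from 12.28 to 14.69 (5.32-fold). Tlr4, the endotoxin receptor, was 3.72-fold higher. Cx3cr1, the fractalkine receptor, went the other way, from 9.57 to 5.62, within background, at least 5.42-fold lower. Cd14, Fcgr1, Spi1 and Lyz2 differed by less than 0.5 log2 units, Lyz2 at the end of the scale.

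Of 15 scavenger and efferocytosis genes above background, 10 were at least 2-fold higher and 2 lower (median 1.34, RANKL medians 0.10 to 0.40), while the day change was higher in M-CSF for 6 and lower for 3. The RANKL median of 0.40, in PSS1-LMS, equals the difference between that culture's brightest background probe sets. Besides Marco, the C-type lectin Clec4n was 17.0-fold higher (10.38 to 14.47), the bridging protein Gas6 8.78-fold and the mannose receptor Mrc1 5.40-fold. Msr1, the class A scavenger receptor, was 2.21-fold lower, and Havcr2 (Tim-3) 2.14-fold lower. Cd36, a receptor for oxidised lipoproteins, was 2.54-fold higher in M-CSF but gained more with RANKL (mean change 2.85), so its day change was lower in M-CSF, by a difference of -1.50 ± 0.47 (SE, adjusted p = 0.0198).

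The chains of complement C1q were higher as well, with C1qa from 12.86 to 16.19 (10.1-fold), C1qc 4.59-fold and C1qb 3.42-fold. Against RANKL, C1qa and C1qc passed the test (adjusted p = 0.000253 and 0.00718) and C1qb did not (0.69 ± 0.46, adjusted p = 0.27). Of 10 Fc receptor and ITAM genes, 4 were at least 2-fold higher and 1 lower, against shares of 18.0% and 16.0% over all genes. In the test against RANKL, members of this list went both ways, more of them higher in M-CSF. The inhibitory Fc receptor Fcgr2b was 17.9-fold higher (9.71 to 13.87) and the activating Fcgr3 4.19-fold, and Clec5a, a DAP12-coupled lectin, was 6.61-fold lower. Of 7 NADPH oxidase genes, 4 were at least 2-fold higher and 0 lower (median 1.15), against the same shares over all genes. Among the higher were Ncf1 (2.59-fold) and the proton channel gene Hvcn1 (at least 5.07-fold, 6.17 to 8.63).

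Of 14 genes of iron uptake, storage and export, 5 were at least 2-fold higher, 4 of them at least 4-fold, and 1, Lcn2, lower (median 0.61). The 2-fold shares over all genes were 18.0% higher and 16.0% lower. Besides Slc40a1 and Hpgd, a prostaglandin enzyme that the list also holds, transferrin (Trf) was 15.7-fold higher (9.83 to 13.80), Ncoa4, the receptor that carries ferritin to the lysosome, 8.26-fold (13.55 to 16.60), and Slc48a1, which exports haem from the lysosome, 3.13-fold. These 5 passed the test against RANKL, which their M-CSF change enters. The ferritin chains Fth1 and Ftl1 sat at or near the end of the scale on both days.

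The largest decrease was in Ccl2, the chemokine that recruits monocytes through Ccr2. Its signal in M-CSF was 14.79 on day 3 and 5.88, within background, on day 6, and 6.32 to 7.99 on the 6 RANKL arrays. The day 3 M-CSF array stood far above the other 7 arrays, and the drop in M-CSF was at least 203-fold. The day change differed from RANKL by -9.26 ± 0.48 (SE, adjusted p = 4.07e-10). Ccl7, a related chemokine, went from 10.96 to 5.31 (at least 14.2-fold lower) and Tnf, tumour necrosis factor, from 11.39 to 7.24 (at least 17.7-fold lower).

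Among 13 chemokine genes above background, 6 were at least 2-fold lower and 4 higher, and the median was -0.22. The shares over all genes were 16.0% lower and 18.0% higher. Over the 6 members above background on both arrays the median turned to 0.50. Ccr2 itself went from 10.04 to 6.15, at least 7.53-fold lower, and Ccl4 was at least 3.32-fold lower. Gains were seen for Cxcr4, the CXCL12 receptor (5.98 to 10.42, at least 17.5-fold), Cmklr1, the chemerin receptor (at least 15.6-fold), Cxcl16 (6.33-fold) and Ccl6 (2.98-fold). Plau, urokinase, was 14.4-fold lower and its receptor gene Plaur 5.26-fold, while Timp2, a metalloproteinase inhibitor, was 11.6-fold higher.

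The neutrophil granule genes Lcn2 and Ngp dropped in every culture. Lcn2, encoding the iron-siderophore binding protein of secondary granules, read 14.13 and 6.56 in M-CSF. It read 14.58 and 6.38 in M-CSF+RANKL, 14.58 and 5.27 in PSS1-WT, and 14.97 and 6.90 in PSS1-LMS. The M-CSF array was the lowest of the day 3 arrays by a small margin and lay among the RANKL arrays on day 6, and the drop in M-CSF was at least 128-fold. Ngp, neutrophilic granule protein, read 13.68 and 5.23 in M-CSF and 13.79 to 14.35 and 5.41 to 5.91 with RANKL, at least 93.8-fold lower in M-CSF. The day change of neither differed from RANKL at the threshold: 0.95 ± 0.47 for Lcn2 (adjusted p = 0.129) and -0.06 ± 0.40 for Ngp (adjusted p = 0.932).

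S100a9 and S100a8, the calprotectin chains, were at least 19.8-fold and 10.3-fold lower in M-CSF, and Chil3 at least 7.57-fold. With RANKL these genes also ended within background. Of 21 secondary and tertiary granule genes matched, 7 were above background, with a median of -2.35. Those counted include Cybb, Cyba and Anxa1, which macrophages also express. Over the 4 members above background on both arrays the median was 0.57, because that limit leaves out members that end in background. The summed signal of the list was 18.03 and 18.78 in M-CSF, while Camp and Ltf were within background on both days and Mpo and Elane, of primary granules, less than 1 log2 unit over it. Of the mature neutrophil list, Csf3r, the G-CSF receptor, was at least 12.7-fold higher (6.22 to 9.96) and Wfdc17 22.4-fold higher (10.92 to 15.41), so the list did not move as a block (median 0.26, and -0.92 with no floor or a lower one). The part of neutrophil or monocyte loss in the other changes was not tested.

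Of 10 monocyte markers above background, 4 were at least 2-fold lower and 1 higher (median -0.83). Of the 10, 4 passed the background limit through day 3 alone and 1 through day 6 alone. Ly6c2, the marker of inflammatory monocytes, went from 8.64 to 3.42, within background, and averaged 8.99 and 4.08 with RANKL. F13a1, coagulation factor XIII A chain, was 2.41-fold lower, and Ms4a6c was 5.87-fold higher (11.45 to 14.01).

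**Figure D4:**
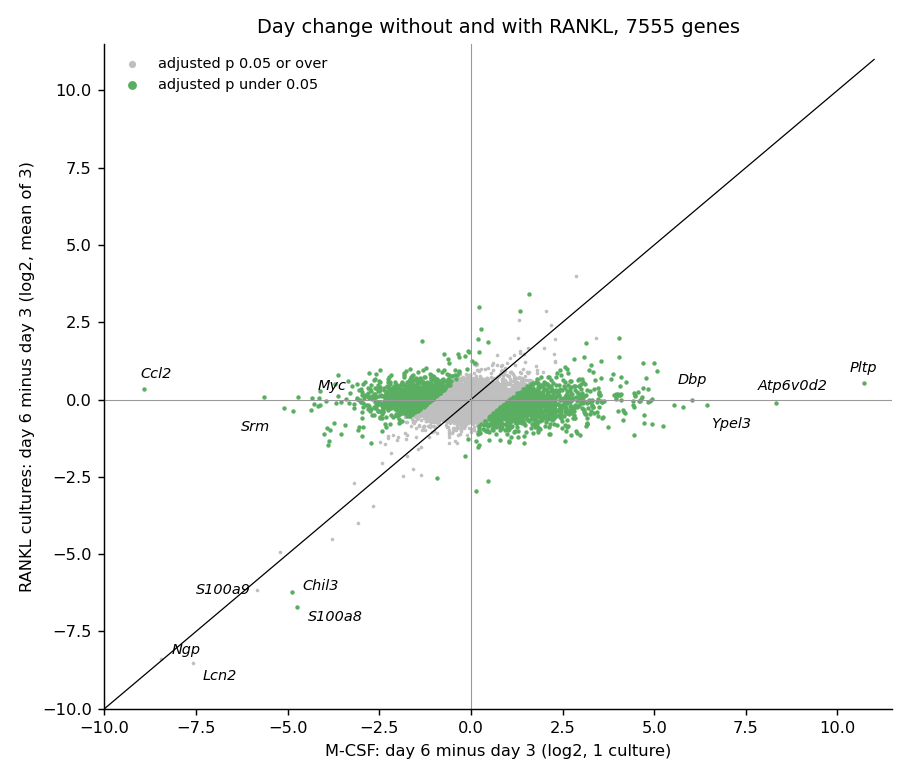
Day 6 minus day 3 in log2 signal as measured, without a background floor, for 7555 genes: in M-CSF (horizontal, 1 culture) and as the mean of the 3 RANKL cultures (vertical), with the line of equal change and green marking an adjusted p under 0.05 for the difference between them. Most green genes spread along the horizontal axis near a RANKL change of 0, whereas Lcn2, Ngp and S100a9 lie near the line of equal change.

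Proliferation genes were lower on day 6. Of 21 DNA replication genes above background, 16 were at least 2-fold lower, 8 at least 4-fold lower and 0 at least 2-fold higher, with a median of -1.40. The RANKL medians were 0.13 to 0.43, and the day change was lower in M-CSF for 19 of 21. Of the 21, 10 passed the background limit through day 3 alone. Mcm2, of the replicative helicase, went from 11.72 to 8.52 (9.18-fold lower), Rrm2, of ribonucleotide reductase, from 11.54 to 8.77 (6.81-fold lower), and Uhrf1, which maintains DNA methylation, from 10.26 to 8.02 (at least 4.73-fold lower). Pcna, the sliding clamp, was 2.47-fold lower and still read 15.95 on day 6, above its RANKL mean of 14.53.

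Of 26 mitosis and spindle genes, 19 were at least 2-fold lower, 4 at least 4-fold lower and 0 at least 2-fold higher, with a median of -1.57 against 0.20 to 0.46 with RANKL. The day change was lower in M-CSF for 22. Mki67, the proliferation antigen, went from 17.35 to 15.33 (4.06-fold lower), Anln, of the cleavage furrow, from 10.98 to 8.47 (5.69-fold lower), and Ttk, a checkpoint kinase, from 9.54 to 7.27 (at least 4.84-fold lower). On day 3 the summed signals of both lists were higher in M-CSF (17.69 and 18.14) than on any RANKL array (at most 15.40 and 15.65), and on day 6 they were still higher (16.21 and 16.46 against at most 15.48 and 15.98).

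Myc, the transcription factor that drives growth and cell cycle entry, read 14.61 and 10.33 in M-CSF. It read 14.84 and 15.14 in M-CSF+RANKL, 15.74 and 15.02 in PSS1-WT, and 15.92 and 15.87 in PSS1-LMS. The M-CSF array was slightly below the others on day 3 and far below them on day 6, a 19.4-fold drop that differed from RANKL by -4.12 ± 0.44 (adjusted p = 1.94e-06). Id2 and Id1, inhibitors of basic helix-loop-helix factors, were 12.3-fold and at least 3.45-fold lower. Genes of arrest were not uniform. Of 13 arrest and p53 genes, 6 were at least 2-fold higher and 2 lower, against shares of 18.0% and 16.0% over all genes. In the test against RANKL, as many were higher as lower in M-CSF. Trp53inp1 was 6.96-fold, Sesn1 4.80-fold, Btg1 3.52-fold and the inhibitor Cdkn1b (p27) 3.29-fold higher. Cdkn2d (p19) was at least 3.38-fold lower, and Cdkn1a (p21) differed by -0.38.

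Srm, spermidine synthase, read 12.76 and 7.66 in M-CSF against 13.11 to 13.55 on the RANKL arrays, a drop of at least 34.4-fold. Uck2, a pyrimidine salvage kinase, went from 11.87 to 7.03 (at least 26.8-fold lower), and the nucleolar proteins Ddx21, an RNA helicase, and Nop58, of box C/D ribonucleoproteins, were 17.9-fold and at least 17.5-fold lower. With RANKL the mean change of these 4 genes lay between -0.36 and 0.27. The other genes among the 15 largest decreases were Tarm1, an activating receptor of myeloid cells (20.5-fold), Fkbp5, a glucocorticoid-induced chaperone partner (at least 20.3-fold), and Tlcd3a (13.1-fold). Of the 15, 6 ended within background and 12 passed the test against RANKL, all but Lcn2, Ngp and S100a9, a count that the choice by M-CSF change again makes a description.

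Of 13 genes of the integrated stress response and amino acid supply, 7 were at least 2-fold lower and 0 higher (median -1.02). Of the 13, 8 passed the background limit through day 3 alone. The RANKL medians were also below 0 (-1.09 to -0.51), and of 15 tested the day change was lower in M-CSF for 3 and higher for 2. The 3 lower were Mthfd2, of mitochondrial folate metabolism (10.14 on day 3 and within background on day 6, at least 8.07-fold lower), and the amino acid transporters Slc7a5 (at least 8.50-fold) and Slc7a1 (at least 3.46-fold). Asns, asparagine synthetase, was 5.40-fold lower in M-CSF and had a RANKL change of -2.06, with no difference at the threshold (-0.37 ± 0.41, adjusted p = 0.524). Of 15 unfolded protein response genes, 6 were at least 2-fold lower and 1 higher, with Creld2 at least 5.86-fold lower and Herpud1 4.43-fold higher. The median was -0.89 (RANKL medians -0.45 to -0.18), and the day change was higher in M-CSF for 2 and lower for 3, against 17.0% and 14.4% of all genes tested.

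Of 18 glycolysis and hypoxia genes, 6 were at least 2-fold lower and 2 higher (median -0.65), against shares of 16.0% and 18.0% over all genes. The glucose transporter gene Slc2a1 was 6.22-fold lower (12.66 to 10.02), the lactate transporter Slc16a3 4.60-fold and the kinase Pdk1 4.59-fold, whereas Hk3, the myeloid hexokinase, was 3.26-fold higher. Of 23 oxidative phosphorylation and citrate cycle genes, 4 were at least 2-fold lower and 2 higher (median -0.21, RANKL medians -0.32 to -0.19), near the shares of 16.0% and 18.0% over all genes. Cycs, cytochrome c, was 8.27-fold lower and Idh3a, of the citrate cycle, 7.65-fold, and Sdha, of complex II, 3.24-fold higher. Fatty acid synthase (Fasn) and the elongase Elovl6 were at least 5.79-fold and at least 6.06-fold lower, and the fatty acid binding protein Fabp5 8.46-fold higher.

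Of 20 interferon-stimulated genes, 5 were above background, and those 5 were all at least 2-fold higher: Oasl2 (6.89 to 10.40, at least 11.4-fold), Ddx58 (4.19-fold), Ifih1 (3.52-fold), Stat2 (3.34-fold) and Bst2 (2.89-fold). Of these, Oasl2 passed the background limit through day 6 alone and had to be higher, and 4 passed it on both days. As for the other lists, this count is a description. Of 15 myeloid transcription factors, 4 were at least 2-fold higher and 3 lower, against shares of 18.0% and 16.0% over all genes (median 0.03). In the test against RANKL, more of them had a lower day change in M-CSF than a higher one. The gains were led by Egr2 (at least 14.5-fold, 6.10 to 10.15), Maf (3.13-fold) and Cebpa (2.52-fold). Nfatc1, the osteoclast master factor, was 3.53-fold higher (8.27 to 10.09) but stayed below its RANKL means of 14.67 and 13.69, and Clcn7, a lysosomal chloride transporter needed for resorption, was 3.32-fold higher. Of 11 integrin and adhesion genes, 1 was higher, Itgb2, the beta-2 chain (4.23-fold), and 3 lower, Itga5, Itgb1 and Itga6 (at least 3.43-fold, 2.77-fold and 2.58-fold). The shares over all genes were 18.0% higher and 16.0% lower.

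**Figure D5:**
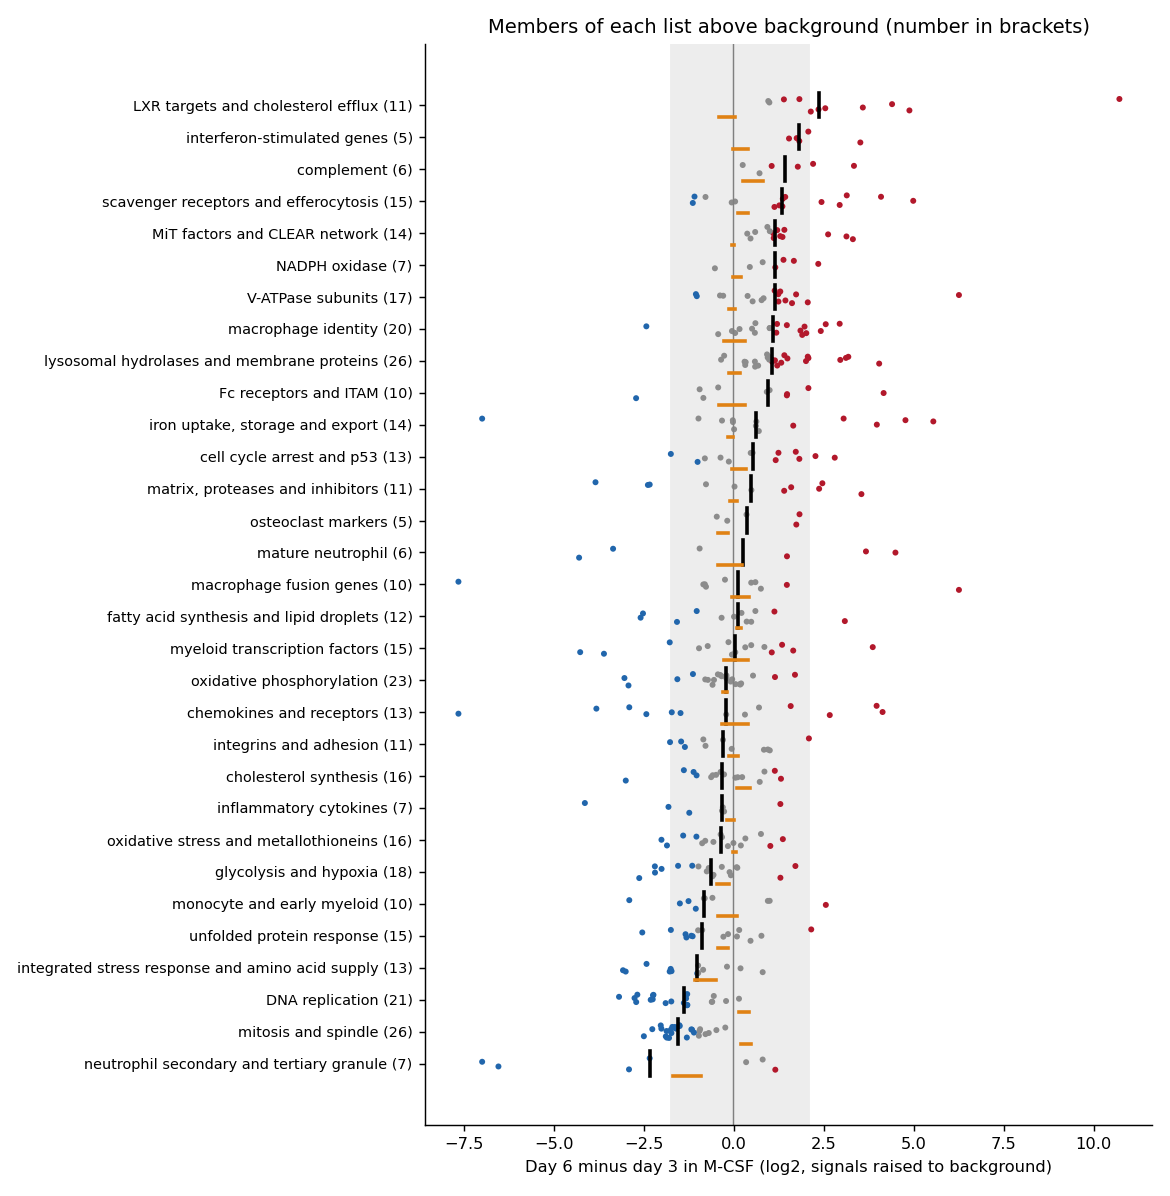
Day 6 minus day 3 in M-CSF (log2, signals raised to background) for members above background of each gene list with at least 5 of them; each point is 1 gene (red at least 2-fold higher, blue at least 2-fold lower), the black bar the list's median and the orange bar the range of that median over the 3 RANKL cultures. The grey band spans -1.74 to 2.09, the central 90% of all 6243 genes; LXR targets have the highest median (2.35), and the granule list (-2.35), mitosis (-1.57) and DNA replication (-1.40) the lowest.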

How the data were processed

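The authors' deposited values are log2 signals of Affymetrix arrays, 1 per sample, from biotinylated cDNA made from 500 ng of total RNA per the labels' protocols. Probe summary, normalization and genome build are not given in the sources used here. The values themselves show the log2 scale, and they were used as deposited. Array medians lay between 4.80 and 4.93.

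Of 28846 features, 22206 were transcript clusters, and 19572 carried 1 symbol in GEO's platform annotation, which can be old. For 55 genes with several clusters, the one with the highest mean was used, which gave 19505 genes. A further 2634 clusters had no symbol.

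The M-CSF day change rests on 1 array a side and was not tested. With limma (version 3.58.1, R version 4.3.3), each culture's day change was compared between M-CSF and the mean of the 3 RANKL cultures, on measured signals of genes above background on at least 1 of the 8 arrays, with 2 residual degrees of freedom and 16.6 from the variance pooled over genes. Benjamini-Hochberg adjustment covered the 7555 genes, of which 3179 had an unadjusted p under 0.05. Errors beside differences from RANKL are standard errors of that fit. The labels name no separate animals, so p-values measure only the spread between these cultures. The fit was run on simulated data with known changes, with the noise of all arrays drawn from the spread of the RANKL cultures. That run could not check the assumption that the M-CSF change varies as theirs do.

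Named genes were the 15 largest gains and the 15 largest decreases above background, without predicted genes, olfactory and vomeronasal receptors or more than 3 members of a family, plus Pltp, Abca1, Atp6v0d2, Ngp, Lcn2 and members of 41 gene lists (733 genes, 655 matched). Genes and lists were chosen with earlier results of these data known. Alternatives covered scaling, background limits, fold thresholds and the cultures left out.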

Additional observations from a re-analysis of the deposited data

Results flagged for a closer look

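The genes below are the 27 of the 30 named genes that passed the limma fit against RANKL at an adjusted p under 0.05. That fit compares the day change in the M-CSF culture with the mean day change of the 3 RANKL cultures. Because the named genes were picked for the size of their M-CSF change, which enters the fit, their passing is a description. In that fit 1286 genes had a higher and 1088 a lower day change in M-CSF. Values are log2 differences between the changes, on signals as measured.

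Among gains, Pltp differed by 10.18, the proton pump subunit gene Atp6v0d2 by 8.42 and Ypel3 by 6.60. Fcgrt differed by 6.11, Dbp by 6.06, Ednrb by 6.02, Hpgd by 5.70 and Nxpe5 by 5.23. Clec2d differed by 4.94, Abca1 by 4.93, Klhl24 by 4.90 and St6gal1 by 4.48. Plxdc2 differed by 4.16, Slc40a1 by 4.07 and Marco by 3.81.

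Among decreases, the chemokine genes Ccl2 and Ccl7 differed by -9.26 and -5.75. Srm differed by -4.84, Uck2 by -4.48, Fkbp5 by -4.40, Nop58 by -4.39, Tlcd3a by -4.20, Tnf by -4.19 and Myc by -4.12. Tarm1 differed by -4.03, Ddx21 by -3.95 and Plau by -2.87. The M-CSF signals of Ccl2, Ccl7 and Uck2 on day 6 and of Atp6v0d2 on day 3 lay within background, so the sizes of their differences are read through it. On the RANKL side, all 6 signals of Hpgd, Nxpe5 and Ccl7 lay within background, as did the day 3 signals of Marco and Plxdc2. The sizes of these differences are read through background as well.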

How the results depend on the processing

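The counts of genes higher or lower by 4-fold or more, 349 and 205, stayed within 1.5 times under centring, quantile normalization, other floors and other background limits. A 2-fold threshold gave 1124 and 999, by its construction. One floor shared by both M-CSF arrays, chosen after seeing the data, gave 304 and 205. Against the RANKL cultures, the counts of 1286 and 1088 ranged from 1076 to 1607 and from 885 to 1409 with 1 culture left out in turn, and the other settings also stayed within 1.5 times. Under quantile normalization the balance turned, with more genes lower in M-CSF than higher. With 1 culture left out, 1 residual degree of freedom remained. Of 198 list medians under alternatives, 182 moved by no more than 0.38, the pooled standard deviation of the RANKL day changes, 12 moved further without turning and 4 reversed. Over members above background on both arrays, a limit that leaves out members within background on 1 day, the secondary and tertiary granule list turned from -2.35 to 0.57 and the chemokine list from -0.22 to 0.50. The mature neutrophil list turned from 0.26 to -0.92 with the floor at the median background probe set and -0.92 with no floor. Of the 182, 3 changed sign near 0. Without a floor, 6 of 30 named genes moved further, such as Atp6v0d2 to 8.32 and Ccl2 to -8.91, and 0 reversed. In M-CSF the day 6 floor lies above the day 3 floor, so decreases are cut shorter than gains. In a RANKL culture, a gene within background on both days takes the difference between the floors. That was -0.34 in M-CSF+RANKL, -0.43 in PSS1-WT and 0.40 in PSS1-LMS, and RANKL medians of lists can equal it. No paired analysis was possible because each group had 1 array, so no replicate block could be added, though the fit against RANKL takes the day change within each culture.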

Other observations

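Genes of ribosome assembly were lower on day 6 in M-CSF as a group that was put together after Nop58 and Ddx21 had been seen, so its count is a description only. Of 27 above background, 16 were at least 2-fold lower and 0 at least 2-fold higher, with a median of -1.53 against -0.17 to 0.21 in the RANKL cultures. Of the 27, 14 passed the background limit through day 3 alone and 13 on both days. Wdr75, of the small-subunit processome, went from 10.44 to 7.59, Mybbp1a, a nucleolar Myb-binding protein, from 10.23 to 7.42, and Polr1a, the largest subunit of RNA polymerase I, from 9.90 to 7.15. The nucleolar phosphoprotein Npm1 (15.26 and 15.14), Pes1 and Polr1c differed by less than 0.2. The day change was lower in M-CSF than with RANKL for 19 of 28 tested and higher for 0.

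A list of polyamine and nucleotide synthesis, also chosen after Srm and Uck2 had been seen, had 8 of 13 members at least 2-fold lower and 0 higher, with a median of -1.50 (RANKL medians -0.25 to -0.06). Of the 13, 7 passed the background limit through day 3 alone and 6 on both days. Mtap, which recycles the by-product of polyamine synthesis, went from 12.57 to 9.46, and Odc1, the first enzyme of the pathway, from 10.72 to 7.74. Paics, of purine synthesis, went from 13.76 to 14.30.

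Among the 2634 clusters without a symbol, 633 were above background in M-CSF, of which 35 were higher and 19 lower on day 6 by 4-fold or more. Ccr3, the eotaxin receptor listed as an eosinophil and mast cell gene, went from 7.31 to 10.74 in M-CSF and averaged 12.85 and 12.78 with RANKL, while the other 18 matched genes of that list were within background on both days in M-CSF. Acta2, smooth muscle actin, went from 8.23 to 11.09 in M-CSF and averaged 7.22 and 11.22 with RANKL.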
